A study of Mus musculus with 19 samples.

Results

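The 48 genes described here are ribosome biogenesis factors, listed by symbol: nucleolar assembly proteins and subunits of RNA polymerase I. Several of them had been seen to fall with pentoxifylline in these data, so their response to that drug chose the list and is given below as a description with no test. Of the 48 symbols, 47 had a row in both deposited tables, which list 14290 and 14818 genes with a symbol. Noc2l is not analysed here. All 47 passed the filter on low values in both tables, none with a value below 0. Ribosome biogenesis is the assembly line that turns ribosomal RNA and ribosomal proteins into ribosomal subunits. RNA polymerase I transcribes the ribosomal RNA precursor in the nucleolus, small nucleolar ribonucleoproteins (snoRNPs) modify it, and separate sets of factors fold and cut it into the small (40S) and large (60S) subunits. In T cells the pathway is switched on with antigen receptor signals and growth, and the transcription factor Myc is a known inducer of many of its genes.

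The cells were mouse regulatory T cells (Tregs), sorted as YFP-positive from C57Bl/6 Foxp3-CRE-YFP animals, in which Foxp3, the Treg lineage factor, drives Cre recombinase, and every group carries this Cre. The 19 RNA sequencing libraries form a cultured and an uncultured set. The cultured set was stimulated for 16 h with plate-bound anti-CD3 (5 ug/mL), anti-CD28 (1 ug/mL) and IL-2 (10 ng/mL), and holds 6 libraries in pairs. One pair is wild type (WT) given water, the solvent. Another is WT given pentoxifylline, a xanthine that inhibits phosphodiesterases, at 500 ug/mL. The last is c-Rel-/-, from mice with floxed c-Rel, and its sample titles name neither water nor drug. The uncultured set, 13 libraries, was sorted from spleen and lymph node into resting (rTreg, CD44 low) and activated (aTreg, CD44 high) Tregs, with a further surface marker in the gate, of WT, floxed p65 and floxed c-Rel mice. The floxed groups are called p65-deficient and c-Rel-deficient below. WT aTregs have 3 libraries here, and each of the other 5 groups has 2. p65 and c-Rel, encoded by Rela and Rel, are NF-kB subunits. Levels are RPKM, read counts scaled to gene length and library total, so they are relative to each library's total and do not show the amount of RNA per cell. In the uncultured set the authors adjusted the RPKM further, which left 2.53% of the values below 0. Nothing in the labels says that replicates came from separate animals, so p-values measure the spread between these libraries, which may be technical.

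Several libraries stood apart from their labels or their group. Rel, the gene of the c-Rel allele, was at 2.44 and 24.96 RPKM in the stimulated c-Rel-deficient libraries, against 55.1 and 55.8 in water, so the second held far more Rel than the first. In the sorted libraries Rel was 1.39 to 5.37 in the 4 c-Rel-deficient libraries and 10.9 to 22.01 in the others. Rela was 46.8 to 69.4 RPKM in the 4 p65-deficient libraries and 62.3 to 71.6 in the other 9, an overlap, so these tables do not check the p65 labels by level. Cd44 separated the subsets, at 6.52 to 19.4 in rTregs and 26.4 to 61.2 in aTregs. c-Rel-deficient rTreg replicate 2 had 28.1 RPKM of Foxp3, the lowest of the 13, and 4.35 of Ikzf2, a Treg factor at 18.5 to 121 in the other 12. WT rTreg replicate 1 had low values for long genes: its median deviation was 0.59 lower on the log2 scale (-0.59) for the longest 25% of coding sequences than for the shortest 25%, against -0.13 to 0.24 in the other 12. Ms4a1 and Pax5 of the B cell markers and Csf1r and Cd14 of the myeloid markers were each under 0.5 RPKM in all 19 libraries. Others were not, with Cd79a at 0.727 to 2.49 in the sorted libraries. Among these, Itgax (2.26) and Adgre1 (0.968) were highest in c-Rel-deficient aTreg replicate 2, and Itgam reached 1.145 in c-Rel-deficient rTreg replicate 2. The 5 B cell markers used here summed to 10.4 to 24.2 RPKM in the sorted libraries, most of it Cd79b. The 7 myeloid markers summed to 2.24 to 11.7 there, highest in c-Rel-deficient aTregs. In the stimulated libraries they summed to 2.77 to 8.14, highest in water. Most of the myeloid sum was Lyz2 and Cd68. The 5 erythroid markers summed to 0.213 in WT rTreg replicate 2 and 0.398 in WT aTreg replicate 2. They summed to 20.8 in WT rTreg replicate 1 and up to 30.7 in the other WT aTregs. In the p65-deficient and c-Rel-deficient sorted libraries the sums were 21.5 to 81.9.

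In stimulated Tregs all 47 genes were lower with pentoxifylline than with water, and for all 47 both drug libraries lay below both water libraries, as did 38.3% of all 9945 genes tested. The summed level of the 47 genes was 3031 and 3936 RPKM in water and 1061 and 1128 with the drug, or 0.814% and 0.921% of all RPKM against 0.266% and 0.285%. The median log2 change was -2.11, against 0.00 over all genes tested. Taken as a ratio of mean RPKM, the middle gene stood at 22.1% of its water level. Of the 47, 27 stood under 25% of the water level, 16 between 25% and 50%, and 4 above 50%.

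**Figure D1:**
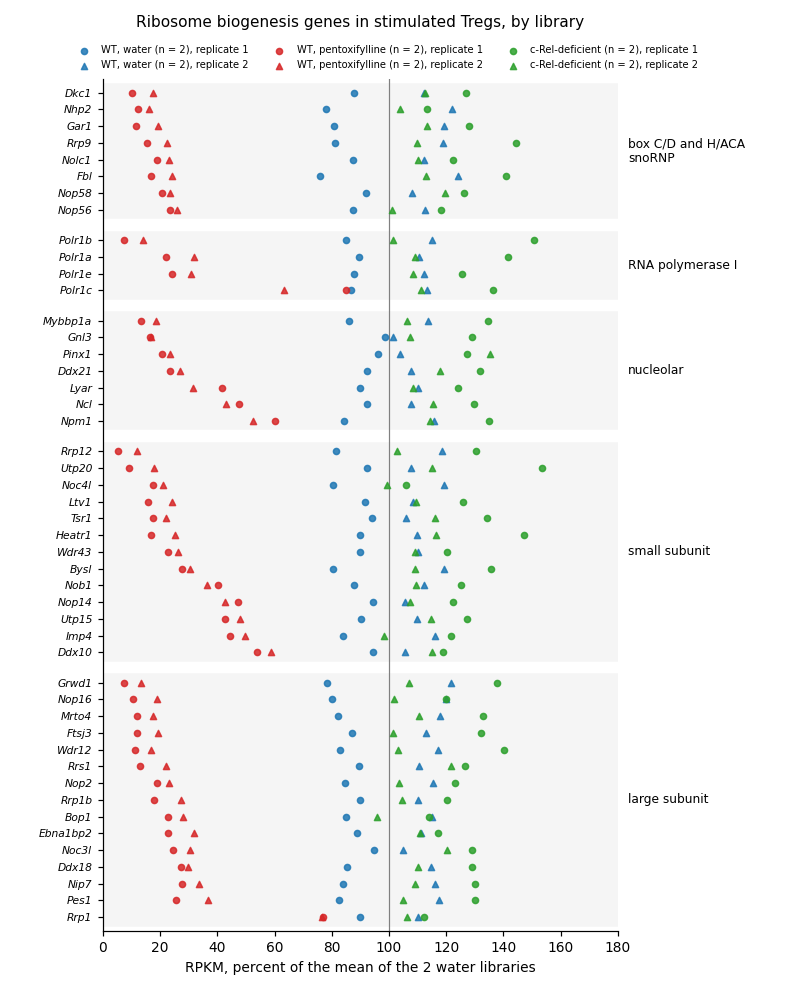
RPKM of each gene in the 6 stimulated libraries, as a percent of the mean of the 2 water libraries, grouped by role; circles are replicate 1 and triangles replicate 2. The drug libraries lie to the left of all water and c-Rel-deficient libraries for each of the 47 genes, with Polr1c and Rrp1 nearest to them. Water replicate 1 is the lowest of the water and c-Rel-deficient libraries throughout.

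The snoRNP genes were lower by similar amounts, with a median log2 change of -2.29 over 8 genes and a narrow range of -2.82 (Dkc1) to -2.00 (Nop56). Nop56, a core protein of the box C/D particles that methylate ribosomal RNA, was at 108 and 140 RPKM in water and 29.0 and 31.9 with the drug. Fbl, fibrillarin, the methyltransferase of the same particles, was at 46.3 and 75.6 in water and 10.3 and 14.8 with the drug. Dkc1, dyskerin, the pseudouridine synthase of the box H/ACA particles, was at 58.7 and 75.1 in water and 6.87 and 11.7 with the drug. For all 3 genes both drug libraries stood below both water libraries by more than the gap within either pair. The other 5, Nop58, Nhp2, Gar1, Nolc1 and Rrp9, kept between 14.1% (Nhp2) and 22.1% (Nop58) of their water level.

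Among the 4 RNA polymerase I subunits the response was uneven. Polr1b, the second-largest subunit, was at 29.9 and 40.3 RPKM in water and 2.58 and 4.93 with the drug, a log2 change of -3.11, with only Rrp12 and Grwd1 lower still. Polr1a, the catalytic subunit, was at 26.1 and 32.3 in water and 6.46 and 9.32 with the drug. Polr1e, a subunit of the polymerase I specific heterodimer, kept 27.5%. Polr1c, which RNA polymerase III also uses, was at 52.0 and 67.8 in water and 51.0 and 38.0 with the drug, so that drug replicate 1 reached nearly the level of water replicate 1.

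Among the 7 nucleolar proteins the median log2 change was -1.97. Npm1, nucleophosmin, an abundant nucleolar chaperone, was at 308 and 422 RPKM in water and 220 and 192 with the drug, or 56.3% of the water level. Its symbol has processed copies in the genome, and how such reads were shared out is not given in the sources used here. Ncl, nucleolin, was at 239 and 278 in water and 122.9 and 111 with the drug, or 45.2%. The 2 most abundant genes of the list thus kept more of their level than the middle gene. Mybbp1a, Gnl3, Pinx1 and Ddx21 kept between 15.9% (Mybbp1a) and 25.2% (Ddx21), and Lyar 36.6%.

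The 13 small-subunit factors had a median log2 change of -1.99. Rrp12, which takes part in the export of pre-ribosomes, had the largest change of the 47, from 28.9 and 42.1 RPKM in water to 1.91 and 4.28 with the drug, a log2 change of -3.38. Heatr1, a scaffold of the early processome that links transcription to cutting of the precursor, was at 39.5 and 48.3 in water and 7.34 and 11.1 with the drug. Bysl, bystin, a late factor of the small subunit, was at 21.9 and 32.4 in water and 7.49 and 8.26 with the drug. The large processome scaffold Utp20 kept 13.4%, while 4 of the 13 (Nop14, Utp15, Imp4 and Ddx10) kept 44.9% to 56.3%. Noc4l, Tsr1, Ltv1, Wdr43 and Nob1 lay between, at 19.3%, 19.7%, 20.0%, 24.5% and 38.2%.

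The 15 large-subunit factors had a median log2 change of -2.11. Grwd1, a chaperone-like factor of the large subunit, was at 36.4 and 56.6 RPKM in water and 3.48 and 6.17 with the drug, a log2 change of -3.15. Nop2, which methylates the large ribosomal RNA, was at 66.1 and 89.9 in water and 14.8 and 18.1 with the drug. Bop1, Pes1 and Wdr12 form 1 complex, and they kept 25.4%, 31.2% and 14.0% of the water level. Bop1 was at 61.4 and 83.1 in water and 16.3 and 20.3 with the drug. Rrp1 had the smallest change of the 47, from 164 and 201 RPKM to 140 and 140, with a log2 change of -0.37. The remaining 9 (Ebna1bp2, Rrs1, Nop16, Nip7, Noc3l, Mrto4, Ftsj3, Rrp1b and Ddx18) kept 14.6% to 30.6%.

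The other genes of the pathway, from lists that leave out the 47 and were written with earlier results of these data known, were lower with the drug for most but by less. Past an adjusted p under 0.05 in limma, a linear model across all genes, were 11 lower and 1 higher of 15 other polymerase I genes, 11 lower of 14 snoRNP genes, 36 lower and 1 higher of 44 small-subunit genes, 34 lower and 3 higher of 42 large-subunit genes and 12 lower of 14 RNA exosome genes, where 23.9% of all genes were lower and 19.6% higher. The median log2 changes of these lists were -0.70, -1.16, -0.99, -1.04 and -1.02. The lowest were Rrp15 (-3.10), Pno1 (-2.80) and Nat10 (-2.70), and the 5 that were higher were Riok1 (1.75), Gltscr2 (1.16), Zfp622 (0.64), Ttf1 (0.49) and Nsa2 (0.43), the last named after its value was seen. Ttf1 is the factor that ends polymerase I transcription.

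Myc was at 157 and 219 RPKM in water, 25.4 and 47.2 with the drug, and 271 and 210 in the pair labelled c-Rel-deficient. Of 9 proliferation markers 4 were lower with the drug past the threshold, led by Mcm3 and Mcm5 with log2 changes of -2.14 and -2.11, while Mki67 was at 21.5 and 17.0 in water and 25.2 and 21.1 with the drug. Their part in the difference of the 47 genes was not tested. The drug libraries also deviated by coding length, with long genes 0.30 and 0.17 above short ones against -0.22 to 0.03 in the other 4. The 15 of the 47 genes among the longest 25% had a median log2 change of -2.20 with the drug, and the other 32 one of -2.01.

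The pattern was looked at beside the promoter sequence, since the 47 genes moved together and Myc binds the E-box letters CACGTG. RefSeq promoter windows (GRCm38.p6, 250 bases before to 50 bases after the start) matched 41 of the 47 symbols. CACGTG, which reads the same on both strands, was in the windows of 9 of the 41 genes (22%): Grwd1, Imp4, Ltv1, Mybbp1a, Nop2, Pes1, Tsr1, Utp20 and Wdr43. It was in 8.09% of 27025 genes with such a window. These include many genes not tested here, so shares over them are not matched to genes expressed in these cells. The letters CGCGAGA, or TCTCGCG on the other strand, were in 5 of the 41 (12.2%): Nop14, Nop58, Polr1c, Tsr1 and Wdr12, against 2.92% of all. The median log2 change with the drug was -2.26 in the 9 genes with CACGTG, from -3.15 to -1.06, and -1.98 in the 32 without. A match is a run of letters and not a shown binding site. Below are 3 of the windows, in 5′ to 3′ direction of the gene, chosen as the pair with CACGTG among the genes described in every library (Nop2 and Grwd1) and 1 without (Nop56); capitals mark CACGTG.
Nop2, chr6:125131633-125131932, plus strand: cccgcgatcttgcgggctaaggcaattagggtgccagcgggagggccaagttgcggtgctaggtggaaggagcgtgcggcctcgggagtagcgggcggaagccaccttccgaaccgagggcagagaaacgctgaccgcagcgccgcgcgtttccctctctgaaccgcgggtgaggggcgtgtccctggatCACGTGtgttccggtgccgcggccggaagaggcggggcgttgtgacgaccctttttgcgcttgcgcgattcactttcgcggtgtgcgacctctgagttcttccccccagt
Grwd1, chr7:45830740-45831039, minus strand: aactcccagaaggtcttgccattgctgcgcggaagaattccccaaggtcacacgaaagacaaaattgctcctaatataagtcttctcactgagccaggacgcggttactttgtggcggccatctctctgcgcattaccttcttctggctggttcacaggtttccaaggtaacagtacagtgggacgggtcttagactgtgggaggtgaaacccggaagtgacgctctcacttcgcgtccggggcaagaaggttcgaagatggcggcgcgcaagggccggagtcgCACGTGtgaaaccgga
Nop56, chr2:130274162-130274461, plus strand: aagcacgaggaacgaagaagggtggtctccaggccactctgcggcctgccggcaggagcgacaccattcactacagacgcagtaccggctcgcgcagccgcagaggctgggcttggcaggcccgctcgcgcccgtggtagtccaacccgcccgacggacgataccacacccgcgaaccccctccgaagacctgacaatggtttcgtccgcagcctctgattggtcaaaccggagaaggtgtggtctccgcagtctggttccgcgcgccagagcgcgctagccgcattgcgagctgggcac
The run in Nop2 begins at position -60 and that in Grwd1 at position 34, where the start itself is position 0. Nop2, Grwd1 and Nop56, with and without these letters, stood at 21.1%, 10.4% and 24.6% of the water level with the drug.

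In the 2 stimulated libraries labelled c-Rel-deficient, of which replicate 2 held 24.96 RPKM of Rel and replicate 1 held 2.44, no gene of the 47 was on average lower than in water. All 47 were on average higher than in the same 2 water libraries used above, with a median log2 difference of 0.27 (0.06 over all genes tested) and a range of 0.06 (Noc4l) to 0.41 (Utp20). None of the 47 passed the test in limma and 1, Pinx1, had an unadjusted p under 0.05, and limma called 0 of all 9945 genes (0%), with 791 at an unadjusted p under 0.05. The authors' deposited table, adjusted here, also gave 0 of the 47, with 0.483% of its genes higher and 1.66% lower. For 15 genes both libraries labelled c-Rel-deficient lay above both water libraries, as did 24.2% of all genes. Next to Utp20 the largest differences were Heatr1 (0.39) and Pinx1 (0.38), and next to Noc4l the smallest were Bop1 (0.08) and Rrp1 (0.13).

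By library the difference rested on both replicates numbered 1. Water replicate 1 was the lowest of the 4 water and c-Rel-deficient libraries for all 47 genes. The library labelled c-Rel-deficient replicate 1 was the highest of them for 43. Heatr1 was at 39.5 and 48.3 RPKM in water and 64.7 and 51.1 in the libraries labelled c-Rel-deficient. Nop56 was at 146 and 125 in them, on either side of the higher water value of 140. Dkc1 was at 84.8 and 75.2 RPKM in these libraries and Fbl at 85.8 and 68.9. Polr1a was at 41.4 and 31.9 RPKM in these libraries and Polr1b at 52.9 and 35.6. Ncl was at 335 and 298 RPKM in these libraries and Npm1 at 494 and 417. In each of these genes replicate 1 was the higher of the pair. Bysl was at 36.8 and 29.6 RPKM in these libraries and Bop1 at 82.4 and 69.3. Nop2 was at 96.1 and 80.8 RPKM in these libraries and Grwd1 at 63.99 and 49.8. Within replicate number 1 all 47 genes were higher in the library labelled c-Rel-deficient, with a median of 0.53. Within number 2, where that library kept 24.96 RPKM of Rel against 55.8 in water, 15 were higher and 32 lower, with a median of -0.05. Over all genes tested the medians within numbers 1 and 2 were 0.08 and 0.00, with 41.8% and 49.8% of genes below 0. Without water replicate 1 the median difference of the 47 genes was 0.06, with 11 below 0. Without c-Rel-deficient replicate 1 it was 0.14, with 2 below 0. It was 0.43 without water replicate 2 and 0.36 without c-Rel-deficient replicate 2, with 0 genes below 0 in both. Of 9 proliferation markers 7 were below water in this pair on average, with a median of -1.09 and none past the test, and Mki67 was at 3.14 and 10.98 RPKM; their part in the difference was not tested. The intervals were wide: the 95% interval of Utp20 was -0.25 to 1.07 and that of Noc4l -0.41 to 0.54. Against the libraries labelled c-Rel-deficient themselves the drug libraries were lower for all 47 genes, with a median of -2.38 and a range from Rrp12 (-3.62), Grwd1 (-3.47) and Polr1b (-3.42) to Ddx10 (-1.03), Polr1c (-0.74) and Rrp1 (-0.51). That difference and the one from water share the drug libraries.

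In cells taken straight from the animal, activated Tregs had less of these transcripts than resting Tregs. The summed level of the 47 genes was 1818 and 1659 RPKM in WT rTregs, 1694 and 1853 in p65-deficient rTregs and 1680 and 1799 in c-Rel-deficient rTregs. In aTregs it was 1226, 1269 and 1536 in WT, 1325 and 1419 in p65-deficient and 1312 and 1554 in c-Rel-deficient cells. All 7 aTreg sums thus lay below all 6 rTreg sums. As a share of all RPKM the subsets lay closer, at 0.352% to 0.416% in aTregs and 0.42% to 0.459% in rTregs. In bulk RNA, fewer cells with a given level and less RNA per cell cannot be told apart. The sorted set was normalized separately from the stimulated set, so levels are not compared between them.

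In WT cells 44 of the 47 genes were lower in aTregs on average, with a median log2 difference of -0.37 against -0.06 over all genes tested. Past the threshold in limma were 8, all lower, where 4.68% of all 10656 genes tested were lower and 7.54% higher. They were Nop56 (-0.88 ± 0.21 SE, adjusted p = 0.0299 by limma), Rrp9 (-0.85, adjusted p = 0.031), Nob1 (-0.77, adjusted p = 0.035), Gnl3 (-0.71, adjusted p = 0.0293), Ltv1 (-0.60), Wdr43 (-0.48), Pinx1 (-0.48) and Ebna1bp2 (-0.46), the last 4 with adjusted p from 0.0355 to 0.0489 by limma. Rrp9 is a protein of the U3 particle, Nob1 makes the final cut of the small ribosomal RNA, and Gnl3, nucleostemin, is a nucleolar GTPase. In 24 genes all 3 aTreg libraries lay below both rTreg libraries, as in 21.9% of all genes. The authors' deposited table, adjusted here, gave 10 lower genes, with a median of -0.55 over the 47, where 3.26% of its genes were lower and 7.98% higher.

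The WT count hung on single libraries. It was 0 without WT rTreg replicate 1 (2.34% of all genes called), 0 without aTreg replicate 1 (0.782%), 0 without aTreg replicate 2 (0.857%), 17 (16 lower, 1 higher) without rTreg replicate 2 (27.8%) and 24 without aTreg replicate 3 (22.5%), and it was 0 with only the WT libraries in the fit (1.91%). The share over all genes, 12.2% with all libraries, thus moved with it. The median stayed between -0.48 and -0.29 in these fits. WT rTreg replicate 1 stood apart by coding length, and the 8 called genes were all among the other 32. Of the 15 long genes of the list, 13 had their lowest rTreg value in that library, and none their highest. Heatr1 was at 10.2 RPKM there and 19.9 to 22.4 in the other 5 rTreg libraries, Polr1b at 9.13 against 16.7 to 20.8, and Rrp12 at 6.06 against 9.30 to 12.8. The median WT difference was accordingly -0.12 in the 15 long genes and -0.42 in the other 32, and without that library it was -0.31 in both. The 3 genes that were higher in WT aTregs, Heatr1 (0.19), Rrp12 (0.12) and Utp20 (0.10), were all lower without it, at -0.28, -0.17 and -0.24.

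**Figure D2:**
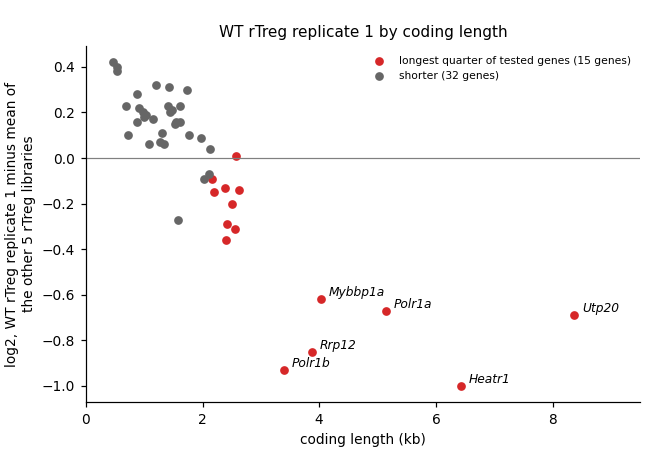
Difference between WT rTreg replicate 1 and the mean of the other 5 rTreg libraries on the log2 scale, against coding length in kilobases, 1 point per gene. The 15 genes in the longest 25% of genes tested (from 2.15 kb, red) have a median of -0.31 and the other 32 a median of 0.17, with Heatr1 the lowest.

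The same subset difference was seen in the other genotypes by size, but with fewer calls. In p65-deficient cells 46 of 47 genes were lower in aTregs, with a median of -0.37. None passed the test in limma, where 0.385% of all genes were called lower and 2.79% higher. At an unadjusted p under 0.05 in limma were 23 of the 47, and 2333 of all 10656 genes tested. In 43 of the 47 both aTreg libraries lay below both rTreg libraries, as in 37.0% of all genes. Rrp9 (-0.78), Nob1 (-0.71) and Polr1b (-0.71) differed the most, and Polr1c (0.01), Ncl (-0.03) and Ddx10 (-0.19) the least. With only these groups in the fit 12 of the 47 were called, where 14.1% of all genes were called in place of 3.17%.

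In c-Rel-deficient cells 46 of 47 genes were lower, with a median of -0.31, and again none passed in limma (0% of all genes called). At an unadjusted p under 0.05 were 11 of the 47, and 1494 of all 10656 genes tested. In 37 of the 47 the libraries did not overlap, as in 30.2% of all genes. The largest differences were in Rrp12 (-0.61), Ftsj3 (-0.55) and Polr1a (-0.55), and the smallest in Ncl (0.01), Polr1c (-0.07) and Rrp1b (-0.08). The 15 long genes had medians of -0.38 and -0.36 in these 2 genotypes, not below the size of the others (-0.36 and -0.27).

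**Figure D3:**
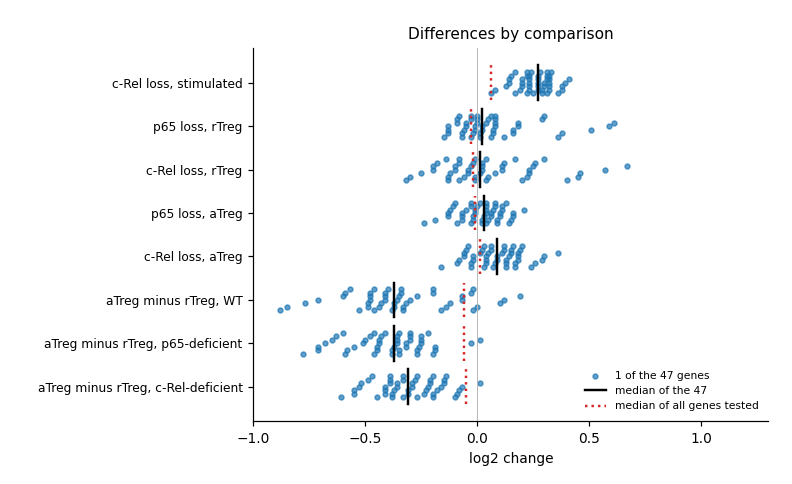
log2 difference of each of the 47 genes (points), their median (black line) and the median of all genes tested (red dotted line) in 8 comparisons. The 3 comparisons of aTregs with rTregs have medians of -0.37, -0.37 and -0.31, and the 4 comparisons of genotype within a sorted subset have medians of 0.02, 0.01, 0.03 and 0.09.

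Averaged over the 3 genotypes, a comparison added after the data were seen that sets all 7 aTreg against all 6 rTreg libraries, all 47 genes were lower in aTregs on average (45 after rescaling the libraries by median of ratios, where Ncl and Polr1c were at 0.02) and 34 passed the test in limma. Over all genes 16.2% were lower and 16.6% higher by this rule. The median was -0.34, against -0.07 over all genes, and values ran from -0.67 (Rrp9) to -0.03 (Polr1c and Ncl). For 15 genes every aTreg library lay below every rTreg library, as for 3.47% of all genes. The count of 34, with 32.7% of all genes called, was 20 without p65-deficient rTreg replicate 2 (20.3% of all genes), 22 without c-Rel-deficient rTreg replicate 2 (21.2%) or p65-deficient aTreg replicate 1 (23.5%), and 19 without c-Rel-deficient aTreg replicate 2 (17.9%).

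**Figure D4:**
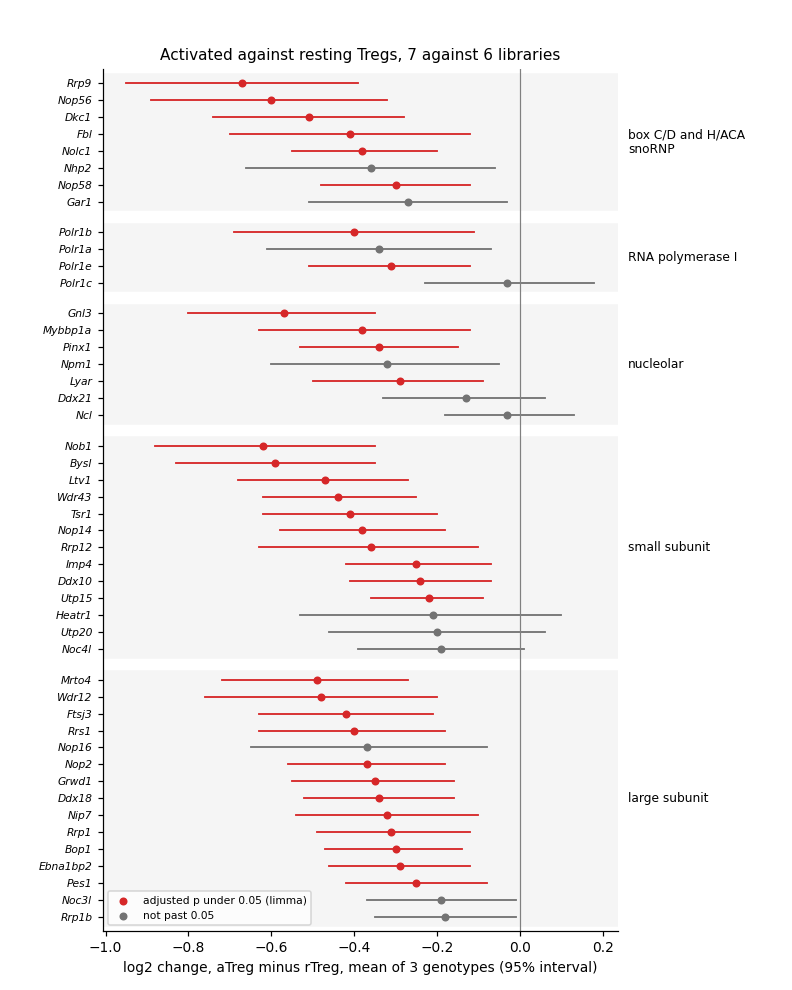
log2 difference between aTregs and rTregs, averaged over the 3 genotypes, with its 95% interval, for each gene by role; red marks an adjusted p under 0.05 in limma. All 47 points lie below 0, from Rrp9 at -0.67 to Ncl and Polr1c at -0.03, and 34 are past the threshold; with median-of-ratios scaling Ncl and Polr1c lie at 0.02.

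By role, 6 of 8 snoRNP genes, 2 of 4 polymerase I genes, 4 of 7 nucleolar genes, 10 of 13 small-subunit genes and 12 of 15 large-subunit genes passed in this comparison. Nop56 was at 125 and 105 RPKM in WT, 106 and 102.5 in p65-deficient and 102 and 90.9 in c-Rel-deficient rTregs, and at 45.1, 67.7 and 77.7 in WT, 68.1 and 70.3 in p65-deficient and 66.7 and 87.9 in c-Rel-deficient aTregs. Every aTreg value was below every rTreg value, and the log2 difference was -0.60 (SE 0.13, adjusted p = 0.00755 by limma). Dkc1 was at 61.7 and 49.4 RPKM in WT, 57.5 and 59.6 in p65-deficient and 56.1 and 55.8 in c-Rel-deficient rTregs, and at 30.2, 36.4 and 46.2 in WT, 37.5 and 42.2 in p65-deficient and 38.5 and 45.9 in c-Rel-deficient aTregs, again without overlap (-0.51, adjusted p = 0.00648 by limma). Rrp9 had a lowest, median and highest RPKM of 34.2, 38.9 and 47.1 in rTregs and 17.6, 23.6 and 31.1 in aTregs, also without overlap (-0.67, adjusted p = 0.00428 by limma). Fbl was at 48.7 and 39.3 RPKM in WT, 38.8 and 49.7 in p65-deficient and 38.7 and 46.5 in c-Rel-deficient rTregs, and at 30.3, 29.3 and 46.6 in WT, 28.8 and 35.5 in p65-deficient and 28.1 and 33.9 in c-Rel-deficient aTregs, where WT replicate 3 alone lay within the rTreg range (-0.41, adjusted p = 0.0365 by limma).

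Among the polymerase I subunits Polr1b was at 9.13 and 16.6 RPKM in WT, 20.8 and 17.6 in p65-deficient and 17.2 and 16.99 in c-Rel-deficient rTregs, and at 12.2, 10.8 and 14.1 in WT, 12.04 and 10.9 in p65-deficient and 10.9 and 13.3 in c-Rel-deficient aTregs. It was lower in aTregs (-0.40, adjusted p = 0.0398 by limma), with WT rTreg replicate 1 below all aTreg values. Polr1a was at 7.57 and 11.3 RPKM in WT, 11.7 and 12.8 in p65-deficient and 11.4 and 14.8 in c-Rel-deficient rTregs, and at 9.25, 7.64 and 10.6 in WT, 9.77 and 8.07 in p65-deficient and 7.64 and 9.84 in c-Rel-deficient aTregs, and did not pass (-0.34, adjusted p = 0.0566 by limma). Without WT rTreg replicate 1 all aTreg values of both genes lie below the rTreg values. Polr1c stood at a lowest, median and highest of 29.7, 34.02 and 40.2 in rTregs and 31.2, 31.98 and 37.8 in aTregs, with the aTreg range inside the other and an interval of -0.23 to 0.18 for the difference. Polr1c and Rrp1 had the smallest changes with pentoxifylline, but Rrp1 was lower in aTregs, at 93.6, 107 and 120.2 against 123.9, 133 and 152 in rTregs (-0.31, adjusted p = 0.0209 by limma).

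Ncl was at 97.7 and 90 RPKM in WT, 91.2 and 105 in p65-deficient and 91.3 and 99.7 in c-Rel-deficient rTregs, and at 86.6, 88.9 and 92.5 in WT, 89.4 and 103 in p65-deficient and 91.1 and 101 in c-Rel-deficient aTregs, and its interval was -0.18 to 0.13 around -0.03. Npm1 was at 184 and 154 RPKM in WT, 141 and 188 in p65-deficient and 153 and 195 in c-Rel-deficient rTregs, and at 129, 106 and 142 in WT, 123 and 154 in p65-deficient and 121 and 163 in c-Rel-deficient aTregs, and its difference of -0.32 did not pass (adjusted p = 0.0695 by limma). These 2 abundant genes thus overlapped between the subsets. Gnl3, at a lowest, median and highest of 29.6, 33.6 and 38.5 in rTregs and 18.1, 21.7 and 27.4 in aTregs, had the lowest adjusted p of the list (-0.57, adjusted p = 0.0036 by limma). Bysl was at 15.4 and 12.9 RPKM in WT, 13.3 and 14.4 in p65-deficient and 14.7 and 15.99 in c-Rel-deficient rTregs, and at 7.91, 8.07 and 12.1 in WT, 8.14 and 9.14 in p65-deficient and 9.62 and 11.4 in c-Rel-deficient aTregs, without overlap (-0.59, adjusted p = 0.0039 by limma). Heatr1 was at 10.2 and 20.01 RPKM in WT, 19.9 and 21.1 in p65-deficient and 20.5 and 22.4 in c-Rel-deficient rTregs, and at 17.5, 13.98 and 17.9 in WT, 17.8 and 14.3 in p65-deficient and 14.3 and 16.4 in c-Rel-deficient aTregs, and did not pass (-0.21, adjusted p = 0.271 by limma).

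Of the large-subunit genes Nop2 was at 31.2 and 32.7 RPKM in WT, 37.1 and 35.6 in p65-deficient and 33.2 and 32.3 in c-Rel-deficient rTregs, and at 21.4, 24.8 and 31.1 in WT, 27.9 and 24.9 in p65-deficient and 25.4 and 26.6 in c-Rel-deficient aTregs, without overlap (-0.37, adjusted p = 0.0104 by limma). Bop1 was at 36.1 and 39.1 RPKM in WT, 43.5 and 40.4 in p65-deficient and 40.4 and 37.5 in c-Rel-deficient rTregs, and at 27.8, 29.8 and 36.3 in WT, 32.7 and 32.5 in p65-deficient and 30.3 and 33.6 in c-Rel-deficient aTregs (-0.30, adjusted p = 0.0132 by limma). Grwd1 was at 19.9 and 16.3 RPKM in WT, 17.8 and 19.2 in p65-deficient and 22.3 and 20.2 in c-Rel-deficient rTregs, and at 11.8, 14.1 and 16.7 in WT, 15.3 and 14.5 in p65-deficient and 15.3 and 16.4 in c-Rel-deficient aTregs (-0.35, adjusted p = 0.0138 by limma). In Bop1 and Grwd1 the highest aTreg value, from WT replicate 3, lay just above the lowest rTreg value. The 13 genes that did not pass were Nop16, Nhp2, Polr1a, Npm1, Gar1, Rrp1b, Noc3l, Noc4l, Utp20, Ddx21, Heatr1, Ncl and Polr1c. The genes of the other pathway lists were lower past the threshold in 7 of 16 (polymerase I), 4 of 14 (snoRNP), 23 of 46 (small subunit, with Nol10 higher), 26 of 46 (large subunit) and 7 of 14 (exosome), led by Nop10 (-0.64), Nle1 (-0.60) and Wdr46 (-0.57).

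Within aTregs the level of these genes differed between libraries of the same genotype. The summed level was lowest in WT replicate 1, at 1226 RPKM, and highest in the 2 libraries numbered 3, at 1536 in WT and 1554 in c-Rel-deficient cells. One of these 2 libraries held the highest aTreg value for 43 of the 47 genes, and WT replicate 1 held the lowest for 28. Only aTregs have libraries numbered 3. The authors' adjustment of this set appears to act on replicate number, and its part in these levels was not tested. Cd44 was at 49.4 RPKM in WT replicate 1 and at 26.4 and 32.9 in the libraries numbered 3. It was at 45.2 in WT replicate 2, where the summed level was 1269. In the p65-deficient libraries it was at 34.5 and 32.8, beside sums of 1325 and 1419. The highest Cd44, 61.2, was in c-Rel-deficient replicate 2, beside a sum of 1312. The part of Cd44 in the difference was not tested. Without both libraries numbered 3 the WT count was 24 in place of 8, with 20.7% of all genes called in place of 12.2%, and the count over the 3 genotypes 39 in place of 34, with 35.6% in place of 32.7%.

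Myc and the proliferation markers moved apart in the same libraries. Myc was at 60.4 to 103 RPKM in rTregs and 30.3 to 70.2 in aTregs (-0.70, adjusted p = 0.0197 by limma, mean of 3 genotypes), while 7 of 9 proliferation markers were higher in aTregs, led by Mki67 (2.07) and Ccna2 (1.96). Mki67 was listed at 0 to 7.84 in rTregs and at 9.34 to 20.3 in aTregs. The genes that build ribosomes were thus lower in the subset whose proliferation markers were higher. The 5 NK cell markers summed to 46.9 RPKM in c-Rel-deficient aTreg replicate 2 and to 2.98 to 18.7 in the other 12 libraries. Cd79b, the B cell marker that was higher in aTregs, was at 8.60 to 16.6 RPKM in rTregs and 14.0 to 22.1 in aTregs. Cd79a, the other B cell marker tested, was lower on average but not past the test. It was at 1.38 to 2.49 RPKM in rTregs and 0.727 to 1.81 in aTregs. Cd68, a macrophage marker, was also higher (0.60), as was Gzma (0.45), while Prf1 (-1.52) and Cd8b1 (-0.66) were lower, all past the test. The 2 CD8 T cell markers summed to 12.4 to 22.1 RPKM in rTregs and 7.96 to 15.2 in aTregs, with Cd8a under 0.3 throughout. The part of these markers in the difference was not tested.

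Loss of p65 or of c-Rel did not move these genes past the test in either sorted subset. In rTregs the median difference from WT was 0.02 without p65 and 0.01 without c-Rel, and in aTregs 0.03 and 0.09. The erythroid markers, near 0 in WT replicate 2 of both subsets, had median differences of 2.26, 2.52, 1.41 and 1.49 in the same comparisons, and their part in these values was not tested. None of the 47 passed in limma in any of the 4 comparisons (0% of all genes). At an unadjusted p under 0.05 were 2, 2, 0 and 1 of the 47, and 726, 775, 365 and 717 of all 10656 genes. The authors' deposited table, adjusted here, gave 0 of the 47 in each. There 0.0337% of all genes were higher and 0% lower without p65 in rTregs, 0.0135% and 0.0135% without c-Rel in rTregs, 0.0675% and 0.128% without p65 in aTregs, and 0.398% and 0.121% without c-Rel in aTregs. Libraries that did not overlap put 10 of the 47 above and 2 below WT in p65-deficient rTregs, where 13.9% and 17.2% of all genes did so, and 9 above and 5 below in c-Rel-deficient rTregs, against 12.3% and 14.2%. In aTregs 1 gene, Tsr1, was above WT without overlap in each genotype, against 9.89% of all genes for p65 and 11.8% for c-Rel. The highest values were Polr1b (0.61), Rrp12 (0.59) and Heatr1 (0.51) in p65-deficient rTregs and Rrp12 (0.67), Heatr1 (0.57) and Polr1a (0.46) in c-Rel-deficient rTregs, all against WT rTregs that include replicate 1 with its low long genes. The 15 long genes had medians of 0.18 and 0.23 in these 2 comparisons and the other 32 of -0.01 and -0.04. The lowest there were Gnl3 (-0.15), Nop56 (-0.13) and Imp4 (-0.13) without p65 and Nob1 (-0.32), Gnl3 (-0.30) and Nop56 (-0.25) without c-Rel.

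In aTregs the largest differences were smaller. Tsr1 (0.21), Nop16 (0.16) and Nop56 (0.16) were highest and Mybbp1a (-0.24), Utp20 (-0.19) and Noc3l (-0.13) lowest without p65. Tsr1 (0.36), Nop56 (0.30) and Ltv1 (0.29) were highest and Fbl (-0.16), Heatr1 (-0.09) and Polr1c (-0.08) lowest without c-Rel. Whether the subset difference itself depended on the genotype was tested by the interaction terms. None of the 47 passed for p65 or for c-Rel (0% of all genes). At an unadjusted p under 0.05 in limma were 2 and 1 of the 47, and 237 and 497 of all 10656 genes. The interaction intervals left room for differences as large as those measured. For Nop56 the c-Rel interaction was 0.55, with an interval of -0.13 to 1.24. For Rrp12 the c-Rel interaction was -0.73, from -1.38 to -0.08, with an adjusted p of 0.898 by limma. Rrp12 is among the 15 long genes and was low in WT rTreg replicate 1, which enters both interactions. The 15 long genes had median interactions of -0.18 for p65 and -0.22 for c-Rel, and the other 32 of 0.04 and 0.14.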

How the data were processed

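RNA of 19 mouse Treg libraries was sequenced (RNeasy and TruSeq v2, per the labels' protocols), and mm10, STAR and DESeq2 1.10.1 are listed in the submitters' processing notes. For either set a table was deposited that gives each library's RPKM, written with decimal commas, and log2 fold changes and p-values of their own comparisons, per the file headers. The sorted table was also adjusted in a way that the file headers do not describe, which left 2.53% of its values below 0. Read depth is not given in the tables, so the precision of single values is unknown.

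Rows with a date in place of a symbol (20 and 21) were left out. Negative values were replaced by 0 and log2 was taken after adding 0.5, so differences of low genes are understated. Tests covered the genes that reached 1 RPKM in 2 or more libraries (9945 and 10656) with limma 3.58.1 (eBayes with trend; statmod 1.5.0, R 4.3.3), all groups of a set in 1 fit, two-sided, with Benjamini-Hochberg adjustment over all genes and a threshold of 0.05. The 2 sets were tested separately. The degrees of freedom used by the authors' adjustment of the sorted table are not counted in these tests. The script was tested on simulated data. Other steps used pandas 2.3.3, scipy 1.17.1, numpy 2.4.6 and matplotlib 3.10.9 under Python 3.11.15. Coding lengths are of the longest coding sequence per gene in the GENCODE mouse annotation, and promoter windows are from RefSeq.

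The genes, the lists and the tests were chosen with earlier results of these data known. Every gene is accounted for by role. Values by library are given for 12 genes (Nop56, Dkc1, Fbl, Polr1a, Polr1b, Ncl, Npm1, Heatr1, Bysl, Bop1, Nop2 and Grwd1). Most comparisons name the 3 genes with the largest rise, the 3 with the largest fall and every called gene where 10 or fewer were called. The mean over genotypes and the interactions do not name all of these. Genes named beyond this rule were picked with their values in view. Some marker genes are not reported here. The alternatives were the pseudocount, the filter, median-of-ratios scaling, robust eBayes, replicate number as a term, only the groups compared in the fit, the authors' deposited statistics, and leaving out each library. Chosen after seeing the data were the mean over genotypes, leaving out both libraries numbered 3, and differences within a replicate number.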

Additional observations from a re-analysis of the deposited data

How the results depend on the processing

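The medians with pentoxifylline lay between -2.25 and -1.93 against water and between -2.52 and -2.23 against the libraries labelled c-Rel-deficient when 1 library was left out. The 0 calls for loss of p65, loss of c-Rel and the interactions stayed at 0 in every alternative that did not leave out 1 library. In those runs 0% to 2.14% of all genes were called. The highest share was for c-Rel loss in stimulated Tregs in the authors' deposited table. With so few genes called, a count of 0 says little about the 47. The WT count of 8 became 5 with no filter (8.08% of all genes called), 0 with only the groups compared (1.91%), 24 without both libraries numbered 3 (20.7%), and 0 to 24 without 1 library. The p65-deficient count of 0 became 12 with only the groups compared (14.1%), and the count of 34 over the 3 genotypes ranged from 19 to 38 without 1 library. Of 1401 alternatives of single-gene differences 1271 kept their direction and side of the threshold, 31 passed it, 61 no longer did and 38 turned sign, in 20 differences; the cause was not tested. With median-of-ratios scaling Polr1a (0.02) and Polr1b (0.04) turned in WT, Ncl (0.02) in p65-deficient cells, and Ncl (0.02) and Polr1c (0.02) over the 3 genotypes. In the authors' deposited table Utp20 (0.01) and Noc3l (0.01) turned for p65 loss in aTregs, and Rrp12 was at -0.05 in WT without both libraries numbered 3.

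Replicate numbers are in the labels of both sets, but nothing says that they mark a shared animal or day. For want of such a label the numbers were not taken as pairs. Correlations of same-numbered libraries' deviations were -0.07 to 0.40 in the stimulated set and -0.49 to 0.44 in the sorted set. The authors' adjustment of the sorted set appears to act on replicate number. Pax5, for example, was listed at 0.04476 RPKM in every sorted library numbered 1. Correlations of values so adjusted cannot show whether the numbers mark pairs. With a replicate block the count of called genes was 18 in WT (19.5% of all genes called), 5 in p65-deficient (6.86%) and 4 in c-Rel-deficient (8.46%) aTregs against rTregs, the last a share of the 47 near that over all genes, and 39 (35%) over the 3 genotypes, and Ncl was at -0.07 in c-Rel-deficient cells.

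Without 1 library, the differences that turned sign ranged as follows. For c-Rel loss in stimulated Tregs, Noc4l ranged from -0.22 to 0.35, Bop1 from -0.14 to 0.30 and Rrp1 from -0.01 to 0.28. In WT aTregs against rTregs, Polr1a ranged from -0.30 to 0.25, Polr1b from -0.42 to 0.41, Heatr1 from -0.28 to 0.66, Utp20 from -0.24 to 0.45 and Rrp12 from -0.17 to 0.41. In aTregs Nop56 ranged from -0.07 to 0.32 and Nop16 from -0.02 to 0.31 for p65 loss, and Fbl from -0.30 to 0.05 and Heatr1 from -0.20 to 0.01 for c-Rel loss. For aTregs against rTregs, Ncl ranged from -0.13 to 0.08 and Polr1c from -0.15 to 0.18 in p65-deficient cells, Polr1c from -0.20 to 0.06 and Ncl from -0.07 to 0.09 in c-Rel-deficient cells, and Ncl from -0.06 to 0.01 and Polr1c from -0.08 to 0.03 over the 3 genotypes.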
